A study of Homo sapiens with 5 samples.

Results

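Amino acid transporters carry amino acids across cell membranes, and the 10 genes described here are SLC7A5, SLC7A6, SLC7A11, SLC3A2, SLC7A1, SLC1A5, SLC1A4, SLC38A1, SLC38A2 and SLC38A10. They were chosen by name, with earlier results of these data known. The reads of every transcript that GENCODE v44 assigns to each gene were summed. All 10 had enough reads to be tested, among 13492 genes tested in all. The RNA came from NCI-H1975 and HCC827, established human lung adenocarcinoma cell lines grown separately in RPMI medium with fetal calf serum until nearly confluent, dissociated and frozen. The medium, the same for both, also held antibiotics. Purified mRNA of NCI-H1975 was labelled as carrying mix A of the sequins, a set of synthetic spike-in transcripts, and that of HCC827 as carrying mix B. The 2 RNAs were combined so that HCC827 gave 0, 25, 50, 75 or 100% of the mass, and each of the 5 libraries is called by the mass ratio of NCI-H1975 RNA to HCC827 RNA, so that 100:0 is pure NCI-H1975 and 0:100 pure HCC827. Each ratio was 1 library, all drawn from 1 RNA preparation per line. Differences along the series therefore compare these RNA preparations, and the spread between cultures was not measured. In such bulk RNA, fewer cells that express a gene and less of its RNA per cell cannot be told apart.

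SLC7A5, SLC7A6, SLC7A11, SLC1A5 and SLC1A4 are exchangers: they let 1 amino acid in while another leaves. The light chains SLC7A5, SLC7A6 and SLC7A11 carry the transport path and are held at the cell surface by a disulfide bond to the glycoprotein heavy chain SLC3A2, also known as CD98. Glutamine brought in by SLC1A5, SLC38A1 and SLC38A2 can be traded by SLC7A5 for leucine and other essential amino acids, which the kinase complex mTORC1 senses. SLC7A11 trades intracellular glutamate for cystine, the source of cysteine for glutathione. Several of these genes are known targets of ATF4, the transcription factor of the amino acid shortage response, and SLC7A11 is also a target of the oxidative stress factor NRF2. Lung adenocarcinomas often carry high levels of SLC7A5 and SLC1A5.

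Library totals ran from 2932250 to 4058751 reads and did not follow the mixing ratio. Other properties did follow it: mitochondrial transcripts took from 5.64% of reads at 100:0 to 8.85% at 0:100, and the mean length of a transcript per read went from 2579 to 2180 bases. Sequins made up 0.187% of reads at 100:0 and 0% at 0:100, the library labelled with mix B. The epithelial genes EPCAM, KRT8, KRT18, KRT19 and KRT7 summed to between 18607 and 42087 reads per library. PTPRC and CD3E, which mark blood cells, had 0 reads in every library, and the 4 blood cell genes checked summed to 0 to 19 reads. The 3 fibroblast genes COL1A1, COL1A2 and PDGFRB summed to 630 reads at 100:0 and 19 at 0:100, and the endothelial pair PECAM1 and CDH5 to 1 to 4 reads per library. The part of these library properties and collagen reads in the results below was not tested, other than by the alternative scaling and the removal of the length trend given below.

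The transporters were present at very different levels. To compare genes with each other, read counts scaled to a common library size (CPM) were divided by the read-weighted transcript length in kilobases, which gives a level per length. In the 100:0 library SLC7A5 stood first at 92.1 CPM per kb (95% exact Poisson interval 87.2 to 97.2). SLC3A2 followed at 70.9 and SLC1A5 at 64.3, and their intervals overlapped. SLC38A2 had 37.9 and SLC38A1 11.1, the latter overlapping SLC38A10 at 10.5. SLC7A11 at 5.49, SLC1A4 at 4.81, SLC7A1 at 3.49 and SLC7A6 at 2.99 formed the low end, and each neighbouring pair among them overlapped. In the 0:100 library SLC7A5 was again first, at 194 CPM per kb (186 to 203), ahead of SLC3A2 at 159 and SLC1A5 at 88.8. SLC38A2 had 21.3 and SLC38A10 15.4, whose interval met that of SLC38A1 (11.3) at 12.9. SLC38A1 overlapped SLC7A1 at 11. SLC7A6 had 5.95, SLC1A4 3.29 and SLC7A11 2.2, and SLC1A4 and SLC7A11 overlapped. Per length, SLC7A11 thus ranked 7 of 10 in NCI-H1975 RNA and 10 in HCC827 RNA, while SLC7A1 ranked 9 and 7. The order depends on the division by length, which lowers genes with long transcripts. Whether read counts here rise with transcript length was not tested. Without the division, SLC7A5 had 393 CPM at 100:0, SLC1A5 176, SLC38A2 174 and SLC3A2 139, so SLC3A2 stood below SLC1A5 and SLC38A2. At 0:100 SLC7A5 (830 CPM), SLC3A2 (306) and SLC1A5 (238) kept their order, and SLC7A11 (21.2) stood above SLC1A4 (16.7). The per-length intervals cover counting error only, and PCR copies counted as separate reads.

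Along the series 8 of the 10 genes had a slope past the threshold, 6 rising with the HCC827 fraction and 2 falling. A slope here means the log2 change fitted over the whole series, from pure NCI-H1975 to pure HCC827, on reads scaled by TMM, a method that sets libraries level on the bulk of their genes. It was tested with the edgeR quasi-likelihood test, with p-values adjusted by the Benjamini-Hochberg method over all genes tested and a threshold of 0.05. Of all genes tested 45.8% passed, 23.5% rising and 22.3% falling. Because the 10 were chosen with earlier results of these data known, that choice may enter each comparison with all genes here. Its part was not tested. Of the 7091 genes with at least 323 reads, the count of the least read transporter, 57.8% passed. The median slope of the 10 was 0.57, against -0.035 for all genes, and their median absolute slope was 0.94, against 0.66. Values ran in order over all 5 libraries for 8 of the 10, compared with 28.5% of all genes tested and 37.8% of those with at least 323 reads. The counting interval of the ratio between the pure libraries did not include 1 for 8 of the 10, compared with 57.7% of all genes tested. That interval narrows with more reads, and its share among genes with at least 323 reads was not taken. With libraries scaled by their totals alone, the median slope of all genes moved to -0.44 and each transporter slope was lower by a similar step, so directions here are relative to the bulk of genes. On that scale 4 transporters rose and 4 fell.

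**Figure D1:**
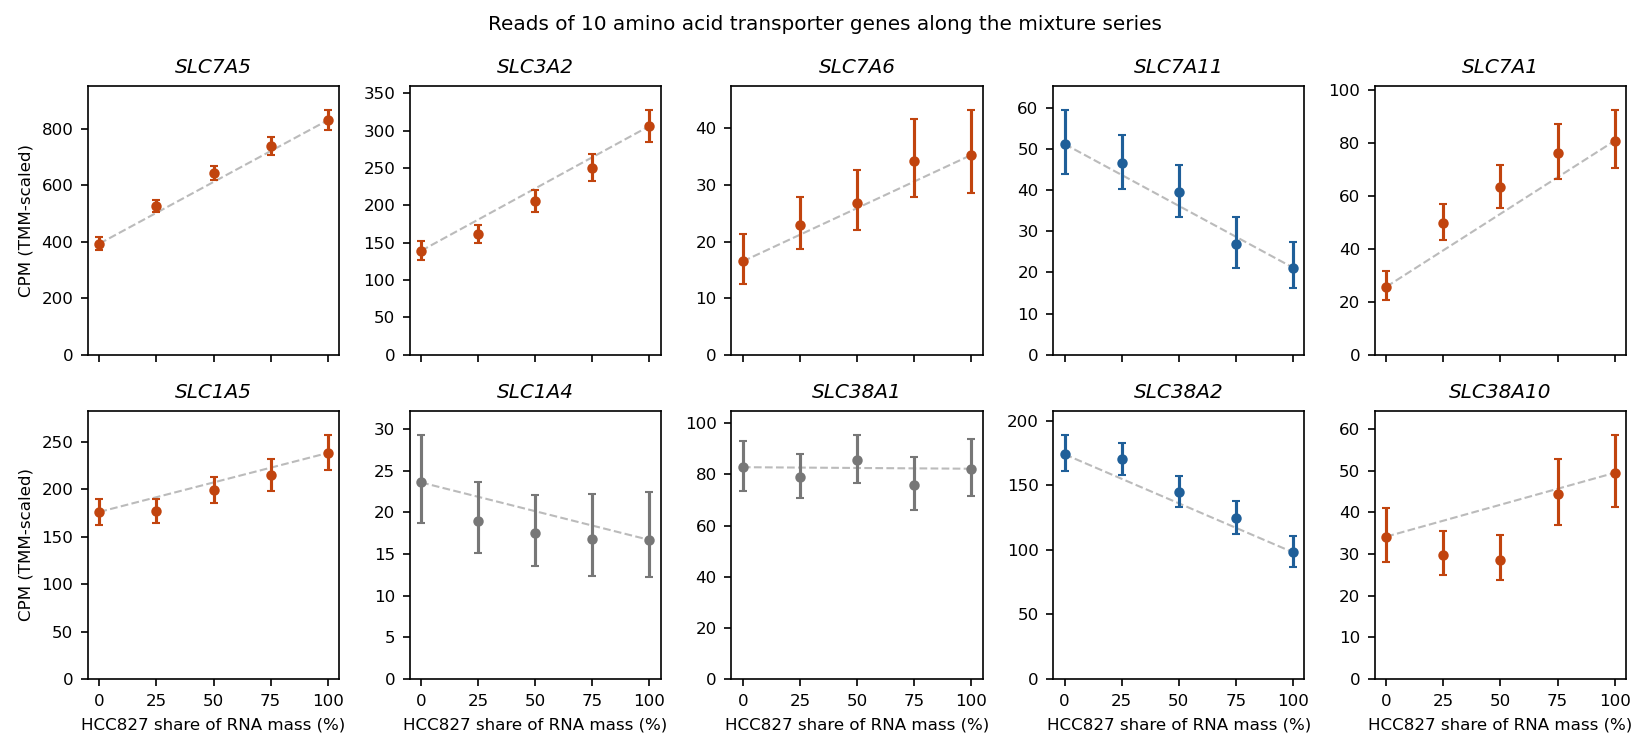
TMM-scaled CPM (y axis) of each transporter against the HCC827 share of RNA mass in percent (x axis), 1 library per point, with 95% exact Poisson intervals as bars and a dashed line between the pure libraries. Orange marks genes that rose, blue those that fell and grey those not past the threshold, and SLC38A10 is lower at 25% and 50% HCC827 than at either end.

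**Figure D2:**
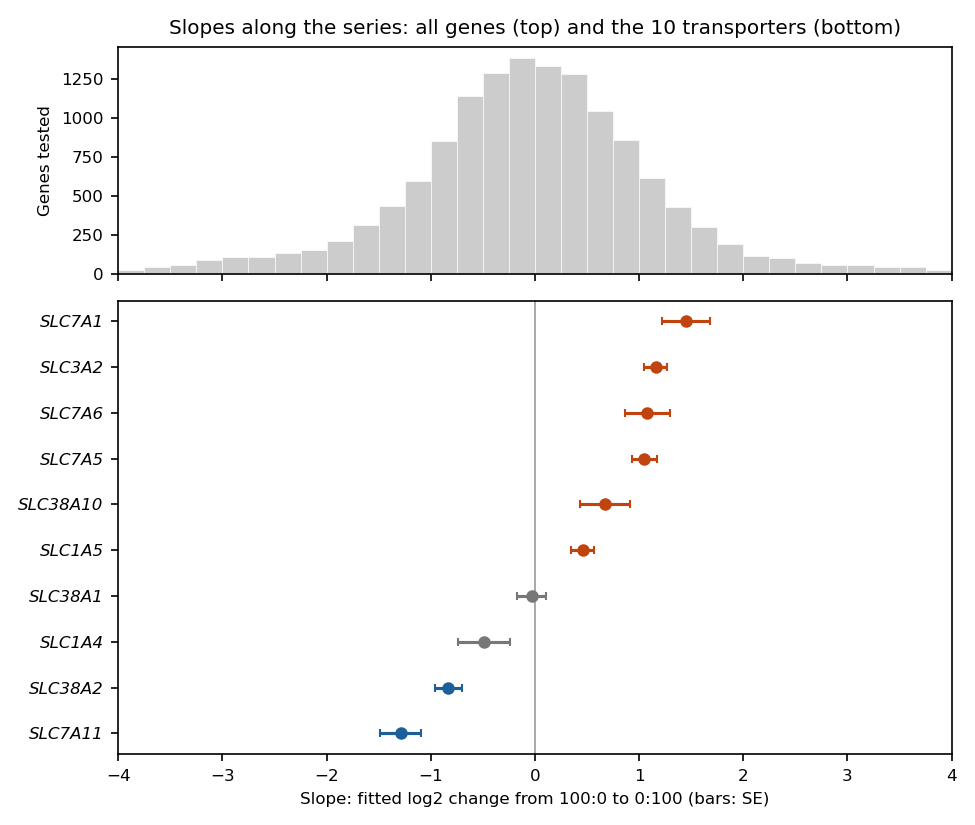
Top, number of genes tested (y axis) by slope, the fitted log2 change from 100:0 to 0:100 (x axis). Bottom, slopes of the 10 transporters with standard errors as bars, coloured as rising (orange), falling (blue) or not past the threshold (grey), and running from -1.29 for SLC7A11 to 1.45 for SLC7A1.

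SLC7A5 and SLC3A2, the light and heavy chain of the leucine exchanger LAT1, rose side by side. SLC7A5 (ENSG00000103257.9, chromosome 16, 87830023 to 87869507, minus strand, GRCh38) had 1334, 2271, 2508, 2111 and 2232 reads from 100:0 to 0:100. Scaled, these were 393, 526, 644, 738 and 830 CPM, higher at each step, with no overlap between the counting intervals of neighbouring libraries. Its slope was 1.05 with an SE of 0.12 (adjusted p = 2.89e-05, edgeR), and the 0:100 library had 2.11 times the scaled level of the 100:0 library (95% exact binomial interval 1.97 to 2.26). SLC3A2 (ENSG00000168003.19, chromosome 11, 62856004 to 62888880, plus strand) had 473, 698, 798, 714 and 822 reads, or 139, 162, 205, 250 and 306 CPM. The order again followed the mix. Its slope was 1.16 with an SE of 0.11 (adjusted p = 8.92e-06, edgeR), and the ratio of the pure libraries was 2.19 (1.96 to 2.46). Under library totals the slopes were 0.65 and 0.75, and both genes passed in all 14 alternative fits. Of the SLC7A5 pseudogenes, SLC7A5P2 had 1 read in all and SLC7A5P1 had 0.

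Because both partners rose, the number of SLC7A5 reads per SLC3A2 read stayed within a narrow range. It was 2.82 (95% exact interval 2.54 to 3.14) in NCI-H1975 RNA and 2.72 (2.51 to 2.94) in HCC827 RNA. The mixes gave 3.25 (2.99 to 3.55), 3.14 (2.9 to 3.41) and 2.96 (2.71 to 3.22), with HCC827 at 25, 50 and 75%. The pure libraries overlapped, and the interval of the 75:25 library lay above that of the 0:100 library. The other light chains behaved differently from each other. SLC7A6 stayed between 0.116 and 0.142 reads per SLC3A2 read, while SLC7A11 went from 0.368 (0.307 to 0.439) at 100:0 through 0.288, 0.193 and 0.108 to 0.0693 (0.0521 to 0.0908) at 0:100. Of the reads of all 8 light chain genes of the SLC7 family, SLC7A5 took 85% at 100:0 and 92.5% at 0:100, and SLC7A11 took 11.1% (9.57 to 12.7) and 2.36% (1.79 to 3.05). SLC7A8, SLC7A10 and SLC7A13 had 0 reads in every library, with an upper 95% exact limit of 0.235% of these reads at 100:0. These are ratios of read counts, and the part of transcript length in them was not tested.

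**Figure D3:**
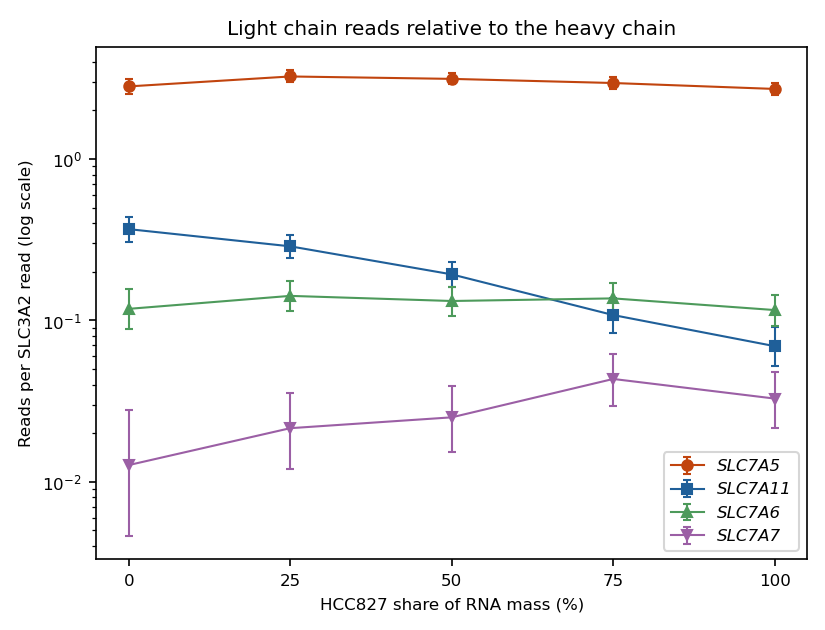
Reads of 4 light chain genes per SLC3A2 read (y axis, log scale) against the HCC827 share of RNA mass in percent (x axis), 1 library per point, with 95% exact intervals for counting error as bars. SLC7A5 and SLC7A6 run nearly level, and SLC7A11 drops from 0.368 to 0.0693.

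SLC7A11, the cystine and glutamate exchanger known as xCT, fell most. The gene (ENSG00000151012.13, chromosome 4, 138164097 to 138242349, minus strand) had 174, 201, 154, 77 and 57 reads, or 51.3, 46.6, 39.5, 26.9 and 21.2 CPM. The values dropped at each step, and the intervals of the 3 libraries with most NCI-H1975 RNA lay above that of the 0:100 library. Its slope was -1.29 with an SE of 0.20 (adjusted p = 2.61e-04, edgeR), and it was 2.42-fold lower at 0:100 than at 100:0 (1.78 to 3.32). Its main transcript is 9645 bases long, and the mean length of transcripts fell along the series. With the length trend removed from each library, an alternative chosen after the data were seen, the slope was -0.91 (adjusted p = 0.00234, edgeR quasi-likelihood test). The antisense gene SLC7A11-AS1 had 8 reads in all.

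SLC7A6, a light chain that exchanges cationic amino acids for neutral ones with sodium, rose on few reads. The gene (ENSG00000103064.15, chromosome 16, 68264516 to 68301823, plus strand) had 56, 99, 105, 98 and 95 reads, or 16.5, 22.9, 26.9, 34.3 and 35.3 CPM. The pure libraries were apart by 2.14-fold (1.52 to 3.03), and neighbouring libraries overlapped. Its slope was 1.08 with an SE of 0.22 (adjusted p = 0.0017, edgeR). In the comparison of 2 against 2 libraries the adjusted p was 0.0506. SLC7A6OS, on the opposite strand and overlapping it, had 174 reads, and whether counting used the strand is not given in the sources used here.

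SLC7A1, the arginine and lysine transporter CAT1 that works without a heavy chain, had the highest slope of the 10 in the fit to all 5 libraries. The gene (ENSG00000139514.13, chromosome 13, 29509414 to 29595688, minus strand) had 87 reads at 100:0 and 214, 246, 218 and 217 in the libraries that follow. The scaled levels were 25.6, 49.6, 63.1, 76.2 and 80.7 CPM, so the first step, from 100:0 to 75:25, was the largest and the 25:75 and 0:100 libraries overlapped. The slope was 1.45 with an SE of 0.23 (adjusted p = 2.72e-04, edgeR), and the ratio of the pure libraries 3.15 (2.44 to 4.09). Both the size and the rank rested on the 100:0 library: without it the slope of SLC7A1 was 0.96 (adjusted p = 6.82e-04, edgeR), below SLC3A2 at 1.22 and SLC38A10 at 1.12. All its reads fell on 1 of its 3 listed transcripts, SLC7A1-201. The 3 genes with profiles most like it, among 5289 with at least 500 reads, were RTL8A, RPP25L and DELE1, with root mean square differences of 0.049, 0.0635 and 0.0679 between centred log2 profiles over the 5 libraries. For SLC7A11 the 3 closest were LITAF (0.0367), FABP5 (0.0388) and STOM (0.0399), and 69 genes came within 0.1, compared with 13 for SLC7A1.

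SLC1A5 and SLC1A4 encode the sodium-dependent neutral amino acid exchangers ASCT2, the main glutamine route in many tumour cells, and ASCT1, which prefers alanine, serine and cysteine. SLC1A5 (ENSG00000105281.12, chromosome 19, 46774883 to 46788594, minus strand) had 596, 763, 774, 614 and 640 reads, or 176, 177, 199, 215 and 238 CPM. The 100:0 and 75:25 libraries were nearly equal and the rise came after them. The slope was 0.46 with an SE of 0.11 (adjusted p = 0.00542, edgeR), and the pure libraries stood 1.36-fold apart (1.21 to 1.52). That call depended on the scaling: with library totals the slope was 0.06 (adjusted p = 0.706) and the ratio 1.02 (0.909 to 1.14). It was also lost without the 0:100 library, with a slope of 0.41 (adjusted p = 0.0566, edgeR), and in the 2 against 2 comparison. SLC1A4 (ENSG00000115902.11, chromosome 2, 64988477 to 65023865, plus strand) had 80, 82, 68, 48 and 45 reads, or 23.6, 19, 17.5, 16.8 and 16.7 CPM. All 5 counting intervals overlapped. Its slope of -0.49 ± 0.25 (SE, edgeR) had an adjusted p of 0.131. Without the 100:0 library it was -0.25 (adjusted p = 0.661, edgeR). Under library totals the slope was -0.90 and passed (adjusted p = 0.00992).

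SLC38A2 and SLC38A1 lie close together on chromosome 12 and encode SNAT2 and SNAT1, sodium-coupled carriers that load cells with glutamine and other small neutral amino acids. They parted along the series. SLC38A2 (ENSG00000134294.14, 46358188 to 46372773, minus strand) had 592, 735, 565, 357 and 264 reads, or 174, 170, 145, 125 and 98.2 CPM. The 100:0 and 75:25 libraries overlapped, and the 0:100 library lay below all others. Its slope was -0.83 with an SE of 0.13 (adjusted p = 2.78e-04, edgeR), and it was 1.78-fold lower at 0:100 (1.53 to 2.06). SLC38A2-AS1, which overlaps its start on the opposite strand, had 0 reads. SLC38A1 (ENSG00000111371.16, 46183063 to 46270017, minus strand) had 281, 341, 334, 217 and 221 reads, or 82.8, 79, 85.7, 75.8 and 82.2 CPM, with all intervals overlapping. Its slope was -0.03 with an SE of 0.14 (adjusted p = 0.88, edgeR) and the ratio of the pure libraries 0.993 (0.828 to 1.19). With library totals it was -0.44 and passed (adjusted p = 0.0199), and with the length trend removed it was 0.30 and did not pass.

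SLC38A10, a less studied member of the SLC38 family found inside cells, was lowest in the middle of the series. The gene (ENSG00000157637.13, chromosome 17, 81244811 to 81295547, minus strand) had 116, 129, 112, 127 and 133 reads, or 34.2, 29.9, 28.7, 44.4 and 49.5 CPM. The 75:25 and 50:50 libraries were lower than both pure libraries, though their intervals overlapped that of 100:0. The slope was 0.67 with an SE of 0.24 (adjusted p = 0.0351, edgeR), and 7 of its 14 alternative fits did not pass, with slopes from 0.26 to 1.12 over all 14. Among those 7 were library totals (0.26, adjusted p = 0.378), DESeq2's Wald test (adjusted p = 0.0941), the fraction estimated from reads (0.64, adjusted p = 0.056) and the fits without 75:25 (0.58), without 25:75 (0.61) or without 0:100 (0.45). Without the 100:0 library the slope was 1.12 and passed (adjusted p = 0.00218, edgeR).

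A mixture should give reads on a straight line between the pure libraries, so each inner library was set against that line. Of the 30 values (10 genes, 3 inner libraries), 10 had a 95% exact Poisson interval that left the value on the line, against 20.6% of values over all genes tested and 24.5% over genes with at least 323 reads. SLC7A11, SLC7A6, SLC1A4 and SLC38A1 had no such value. SLC7A1 lay above the line, at 1.26 times the expected reads at 75:25 (1.1 to 1.44), 1.19 at 50:50 (1.04 to 1.35) and 1.14 at 25:75 (0.992 to 1.3). SLC3A2 lay below it, at 0.894 (0.829 to 0.963), 0.92 (0.858 to 0.987) and 0.945 (0.877 to 1.02). SLC7A5, its partner, was slightly above, at 1.05, 1.05 and 1.02. At 75:25, SLC38A2 stood at 1.1 (1.02 to 1.18) and SLC1A5 at 0.925 (0.86 to 0.993). SLC38A10 reached 0.787 (0.657 to 0.935) and 0.687 (0.566 to 0.827) at 75:25 and 50:50, and 0.973 at 25:75. When the line used the HCC827 share of reads estimated from the whole profile (32.7, 55.4 and 78.2%) in place of the mass share, 8 of 30 values left it, against 22.6% over all genes tested, and those of SLC7A1 and SLC7A5 no longer did. SLC3A2 then stood at 0.835, 0.885 and 0.926, and SLC38A10 at 0.763, 0.674 and 0.962. The counting error of the pure libraries is not in these intervals.

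Long reads also divide each gene among its transcripts. Of 95 listed transcripts of the 10 genes 29 were tested, and 14 passed along the series, 11 rising and 3 falling in the edgeR test. Of all 31758 transcripts tested 33.6% passed, 17.5% rising and 16.1% falling, a share not matched for read count. Isoform usage could be tested for 8 genes, and 0 had an adjusted p under 0.05 (edgeR diffSpliceDGE, Simes), where 0.416% of 7455 genes did. None of the 8 had an unadjusted p under 0.05, the smallest being 0.317 for SLC1A5, and 0 passed by the gene-level F test or limma's diffSplice. The background count of 31 genes was not stable: it was 4 to 21 with 1 library left out (4 without 100:0, 8 without 75:25, 9 without 25:75 and 7 without 0:100), 67 by the F test and 47 by limma, and 0 of the transporters passed in any of these. No change in the choice of transcript was thus detected for these 8 genes, and how small a change this depth could show in them was not tested.

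**Figure D4:**
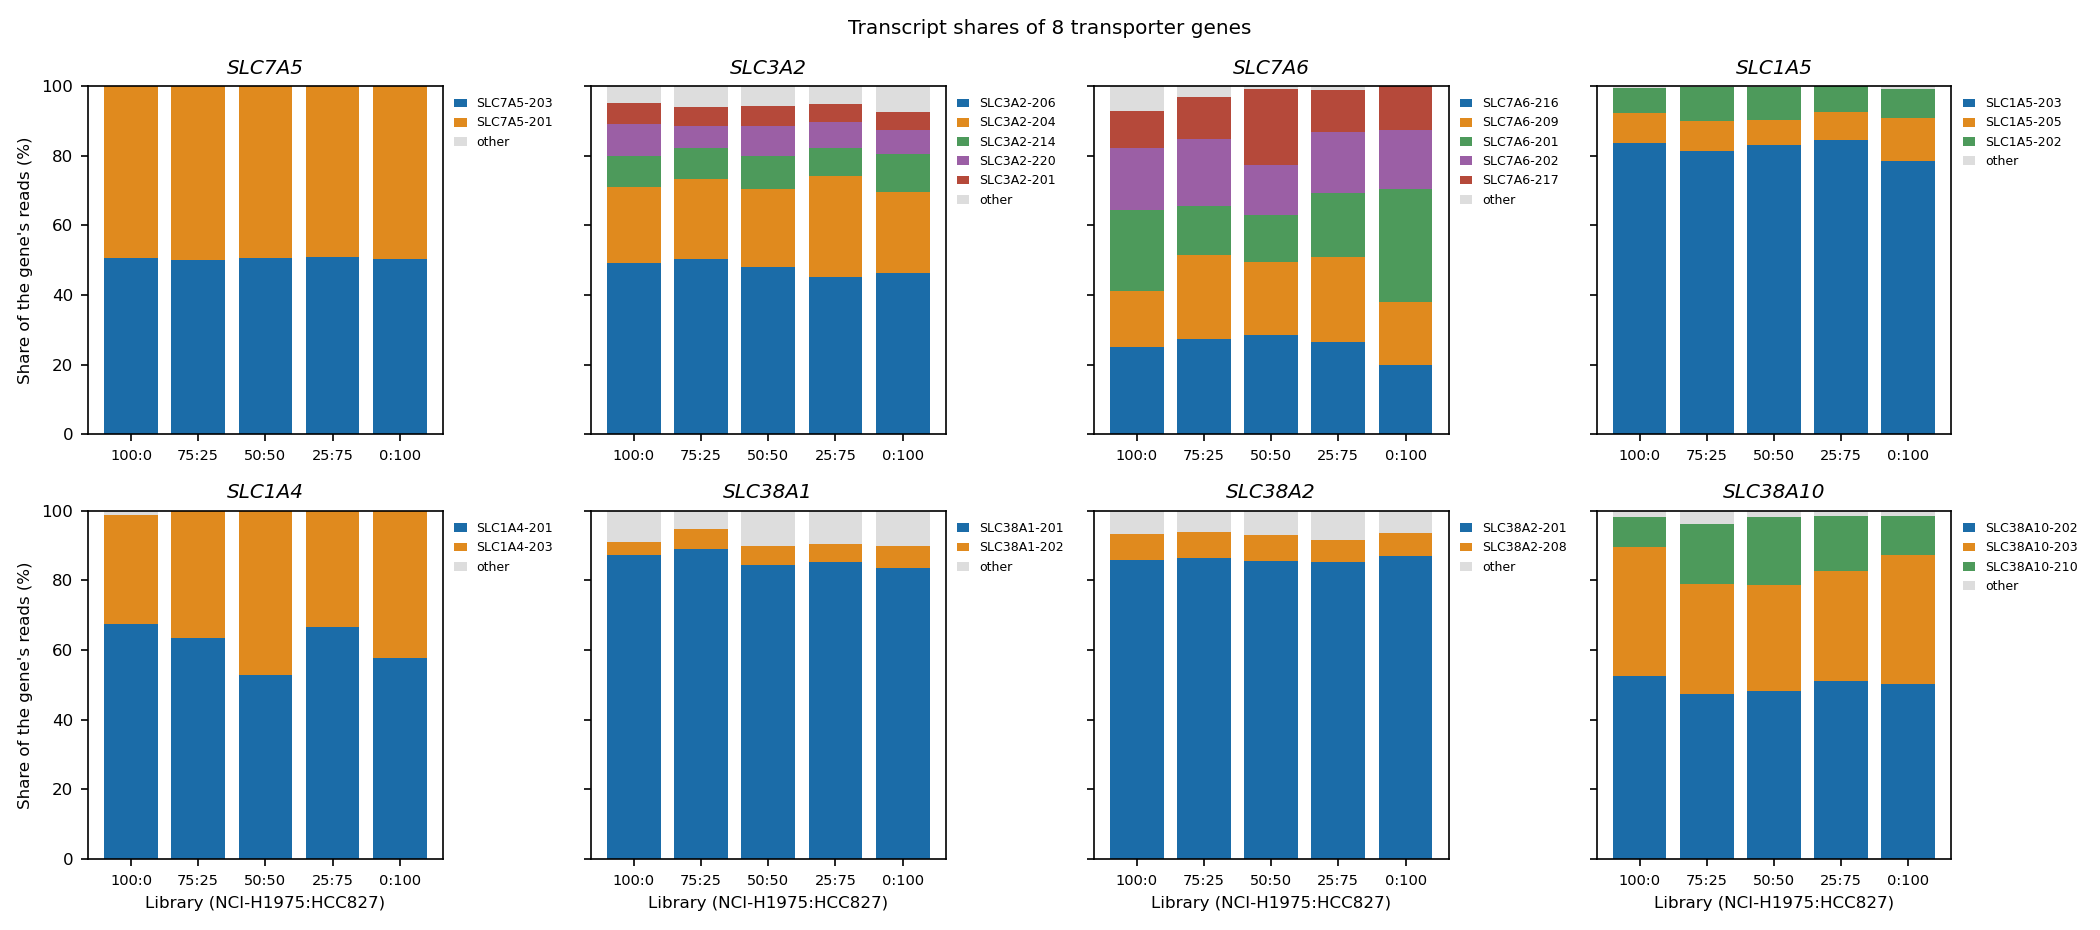
Share of a gene's reads in percent (y axis) held by each transcript with at least 5% of its reads, by library from 100:0 to 0:100 (x axis), for the 8 genes tested for isoform usage, with the remaining transcripts in grey. SLC7A5 is split close to evenly between its main transcripts in each library, and SLC1A5 and SLC38A2 are mostly 1 transcript.

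SLC7A5 reads fell on SLC7A5-203 and SLC7A5-201 in nearly equal numbers, with SLC7A5-201 at 49.5% of the gene's reads at 100:0 and 49.8% at 0:100. The transcripts share 9 of 10 exons and differ in the first, which in SLC7A5-201 holds the annotated start of a 1521-base coding sequence while the 723 coding bases of SLC7A5-203 start in a shared exon further on. The junction that tells them apart is shown because the even split rests on it, with the last 15 bases of exon 1 in lower case and the first 15 bases of the shared exon 2 in capitals. The distinct first exons lie at chr16:87868885-87869507 and chr16:87863590-87863639. How reads that match both were divided is not given in the sources used here, so the split is uncertain where a read ends short of exon 1.
SLC7A5-201: cctgcctctgcgtgcTGCTGCTCACGGCCG
SLC7A5-203: tcactggtcataaagTGCTGCTCACGGCCG

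SLC3A2 had the most transcripts of the 10, 19 of 23 with reads. SLC3A2-206 held 49.3% of its reads at 100:0 and 46.4% at 0:100, and SLC3A2-204 held 21.8% and 23.1%. Both transcripts rose, with slopes of 0.97 ± 0.15 for SLC3A2-206 and 1.31 ± 0.20 for SLC3A2-204 (SE, edgeR, adjusted p = 6.31e-05 and 4.71e-05). SLC3A2-214 held 9.33% of reads over the series, the retained-intron transcript SLC3A2-220 7.56% and SLC3A2-201 5.45%. Their slopes were 1.34, 0.88 and 0.94, and each passed. Without the 0:100 library none of them did.

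SLC7A6 spread its few reads over 5 transcripts with at least 5% each. Of these, SLC7A6-216 and the decay-annotated SLC7A6-202 skip a coding exon of 145 bases (chr16:68290396-68290540, plus strand), which is not a multiple of 3, so that 687 coding bases remain of 1545. SLC7A6-217, also annotated for nonsense-mediated decay, adds an exon of 113 bases (chr16:68287323-68287435). Both exons are shown because the annotated coding length depends on them.
SLC7A6-201 exon 5: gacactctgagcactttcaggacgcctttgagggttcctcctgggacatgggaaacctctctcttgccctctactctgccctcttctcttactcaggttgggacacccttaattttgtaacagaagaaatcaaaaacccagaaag
SLC7A6-217 exon 5: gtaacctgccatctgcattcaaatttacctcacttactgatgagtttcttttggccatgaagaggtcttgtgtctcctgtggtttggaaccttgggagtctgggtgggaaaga
The exon of 145 bases was in 53.8% (39.5 to 67.8) of reads on the 5 transcripts at 100:0 and 63.2% (52.6 to 72.8) at 0:100, with 52 and 95 such reads. The intervals overlapped. SLC7A6-201, which with SLC7A6-209 has the full 1545 coding bases, had 13, 14, 14, 18 and 31 reads. It was the 1 transcript of the gene that passed, with a slope of 1.82 with an SE of 0.49 (adjusted p = 0.00733, edgeR). That call rested on the 0:100 library: without it the slope was 0.97 (adjusted p = 0.381, edgeR), and DESeq2's Wald test gave an adjusted p of 0.0829.

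SLC38A2-208, annotated for nonsense-mediated decay, lacks exon 4 of the main transcript SLC38A2-201, which has 116 bases (chr12:46370512-46370627, minus strand). The exon is shown because skipping it leaves 264 coding bases of 1518.
SLC38A2-201 exon 4: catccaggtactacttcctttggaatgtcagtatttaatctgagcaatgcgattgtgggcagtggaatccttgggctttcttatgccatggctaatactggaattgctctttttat
SLC38A2-208 had 45, 55, 41, 22 and 17 reads and fell with the gene, with a slope of -1.15 ± 0.33 against -0.88 ± 0.16 for SLC38A2-201 (SE, edgeR, adjusted p = 0.0112 and 2.43e-04). Without the 0:100 library the slope of SLC38A2-208 was -1.03 (adjusted p = 0.107, edgeR). Of reads on these 2 transcripts, 91.9% (89.3 to 94) held the exon at 100:0 and 93.1% (89.2 to 95.9) at 0:100. In SLC1A4, the retained-intron transcript SLC1A4-203 had 31.2% (21.3 to 42.6) of reads at 100:0 and 42.2% (27.7 to 57.8) at 0:100, on 80 and 45 reads. SLC38A10 had 33.5% of its reads on the retained-intron transcript SLC38A10-203 and 14.4% on SLC38A10-210, a stretch of 1627 bases with a single exon. SLC1A5-203, the full-length form, held 83.7% (80.5 to 86.6) of SLC1A5 reads at 100:0 and 78.4% (75 to 81.6) at 0:100, where SLC1A5-205, which has 1095 coding bases, held 8.56% (6.44 to 11.1) and 12.3% (9.9 to 15.1). SLC1A5-205 passed with a slope of 0.86 (adjusted p = 0.0287, edgeR), and without the 0:100 library its slope was 0.15 (adjusted p = 0.817).

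The 250 bases before the start sites of the transporters were read from RefSeq (GRCh38.p14), with 15 start sites for 9 of the 10 genes, all but SLC7A11. The search covered 3 motifs on both strands: the C/EBP-ATF element TGATGNAA, bound by ATF4, the E-box CACGTG, bound by MYC and related factors, and the core of the antioxidant response element, TGACNNNGC, bound by NRF2. Of 35116 promoters of this length, 3.14%, 6.34% and 10.9% held them. Among the 15 windows, 1 held the first, 2 the second and 4 the third, and no 2 of the matches overlapped. The promoters of 3 genes that rose are shown, with matches in capitals. SLC7A5 (chr16:87869508-87869757, minus strand) has an E-box whose first base lies at -130 from the start site, SLC7A1 (chr13:29595689-29595938, minus strand) an antioxidant element match at -85, and SLC7A6 (chr16:68264276-68264525, plus strand) 2 such matches, at -197 and -29. Of the 3 windows of SLC3A2, 1 has an antioxidant element match, at -37.
SLC7A5: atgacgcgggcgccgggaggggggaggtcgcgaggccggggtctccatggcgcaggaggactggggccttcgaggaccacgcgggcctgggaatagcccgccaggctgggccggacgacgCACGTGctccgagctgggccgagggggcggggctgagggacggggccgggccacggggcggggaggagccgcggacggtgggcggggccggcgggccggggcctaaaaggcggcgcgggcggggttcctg
SLC7A1: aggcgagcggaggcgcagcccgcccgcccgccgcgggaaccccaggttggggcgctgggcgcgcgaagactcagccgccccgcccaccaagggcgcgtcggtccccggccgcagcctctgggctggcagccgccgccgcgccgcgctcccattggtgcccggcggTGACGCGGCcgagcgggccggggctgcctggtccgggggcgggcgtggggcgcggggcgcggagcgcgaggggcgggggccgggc
SLC7A6: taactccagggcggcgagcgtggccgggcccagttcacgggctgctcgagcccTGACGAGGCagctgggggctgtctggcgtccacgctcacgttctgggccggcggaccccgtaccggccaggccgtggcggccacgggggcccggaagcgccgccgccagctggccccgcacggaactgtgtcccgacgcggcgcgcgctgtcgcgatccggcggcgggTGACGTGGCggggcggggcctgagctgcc
In SLC1A5 the E-box and antioxidant element matches lie before 1 inner start site and the C/EBP-ATF match, TGATGCAA, before another. SLC38A2, which fell, has no match in its window, and neither has SLC38A10, which rose. The windows of SLC1A4 and SLC38A1, which did not pass, hold no match either. A match is only a run of letters, and factor binding was not measured.

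Of 32 other amino acid transporters of the cell surface, 24 had too few reads to test. Of the 8 tested, 3 rose and 1 fell, with a median slope of 1.09. For this and the lists below, 23.5% of all genes tested rose in the same fit and 22.3% fell. The glycine transporter SLC6A9 rose from 14.1 to 36.4 CPM (slope 1.28 ± 0.24), and it was the 1 called gene of this list with at least 100 reads. SLC7A7, the light chain that exports cationic amino acids, went from 6 reads at 100:0 to 27 at 0:100 (slope 2.47 ± 0.52). The glutamate transporter SLC1A1, with 0 and 11 reads, passed upward, and SLC43A1, with 19 and 5, passed downward; these and SLC7A7 were chosen after their values were seen. At least 10 reads in every library, a stricter filter, left 1 of the 4 calls. Of 12 lysosomal and other internal transporters tested, 3 rose and 1 fell. SLC29A3, SLC17A5 and the cystine exporter CTNS had slopes of 1.17, 1.14 and 0.64. SLC29A3, though on the list, carries nucleosides rather than amino acids, and SLC17A5 is best known as a sialic acid exporter. MFSD12, which takes cysteine into lysosomes and melanosomes, fell from 154 to 84.4 CPM (slope -0.92 ± 0.14). Of 10 mitochondrial carriers tested, SLC25A29, a carrier of basic amino acids, rose (1.32 ± 0.26), while the serine transporter relative SFXN3 and the aspartate and glutamate carrier SLC25A13 fell (-0.60 and -0.52). The median slopes of the internal and mitochondrial lists were -0.08 and -0.04, near that of all genes. All slopes here and in the next paragraph are from the same edgeR fit over all genes.

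Of 16 regulators of transporter genes tested, 2 rose and 3 fell, with a median slope of -0.3. ATF4 itself rose from 247 to 433 CPM (0.83 ± 0.12), and MLX rose by 0.49. TXNIP, which limits glucose uptake, fell from 53.3 to 17.8 CPM (-1.38 ± 0.30), EIF2AK4, the kinase GCN2 that senses uncharged tRNA, by a slope of -0.75, and MLXIP by -0.53. NFE2L2, which encodes NRF2, had a slope of -0.33 ± 0.20 and did not pass. Of 16 amino acid response genes 8 rose and 2 fell, with a median slope of 0.52. Among those that rose, the highest slopes were those of CTH (2.12), CBS (1.64), DDIT4 (1.52) and PHGDH (1.03), enzymes of cysteine and serine synthesis apart from the mTORC1 inhibitor DDIT4. CBS has a near-identical copy in the annotation, so its reads are uncertain. ALDH1L2 fell from 15.3 to 1.12 CPM (-2.77) and NUPR1 from 119 to 50.2 CPM (-1.14). ASNS, asparagine synthetase, had a slope of 0.25 ± 0.13 and did not pass.

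Of 13 genes of glutathione and cystine use 6 rose and 3 fell, with a median slope of 0.2. GGT1, which has close relatives and is uncertain, glutathione reductase GSR, NQO1 and glutathione synthetase GSS rose, with slopes of 1.18, 1.13, 0.79 and 0.62. ANPEP fell from 215 reads at 100:0 to 1 at 0:100, HMOX1 from 126 to 11.9 CPM (-2.68 ± 0.30) and SRXN1 from 75.4 to 43.1 CPM (-0.82 ± 0.18). HMOX1 and SRXN1 fell together with SLC7A11, while NQO1, another NRF2 target, rose. GCLC and GCLM, which make the first step of glutathione synthesis, had slopes of 0.03 and 0.13 and did not pass. Of 19 genes of mTORC1 amino acid sensing 4 rose and 2 fell: LAMTOR1, MLST8, LAMTOR5 and LAMTOR4 had slopes of 1.03, 0.71, 0.58 and 0.55, while those of LAMTOR3 and FNIP1 were -1.11 and -1.02. The median slope of that list was 0.06. Of 12 genes of glutamine use 6 rose and 1 fell, with a median slope of 0.5. The alanine aminotransferase GPT2, the CTP synthase CTPS1, GFPT1 and the aspartate aminotransferase GOT2 had slopes of 1.42, 1.11, 0.75 and 0.61. The share that passed in each list can be read against 45.8% of all genes tested and 57.8% of those with at least 323 reads. The lists too were chosen with earlier results of these data known. ASNS is in both the response and the glutamine list.

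**Figure D5:**
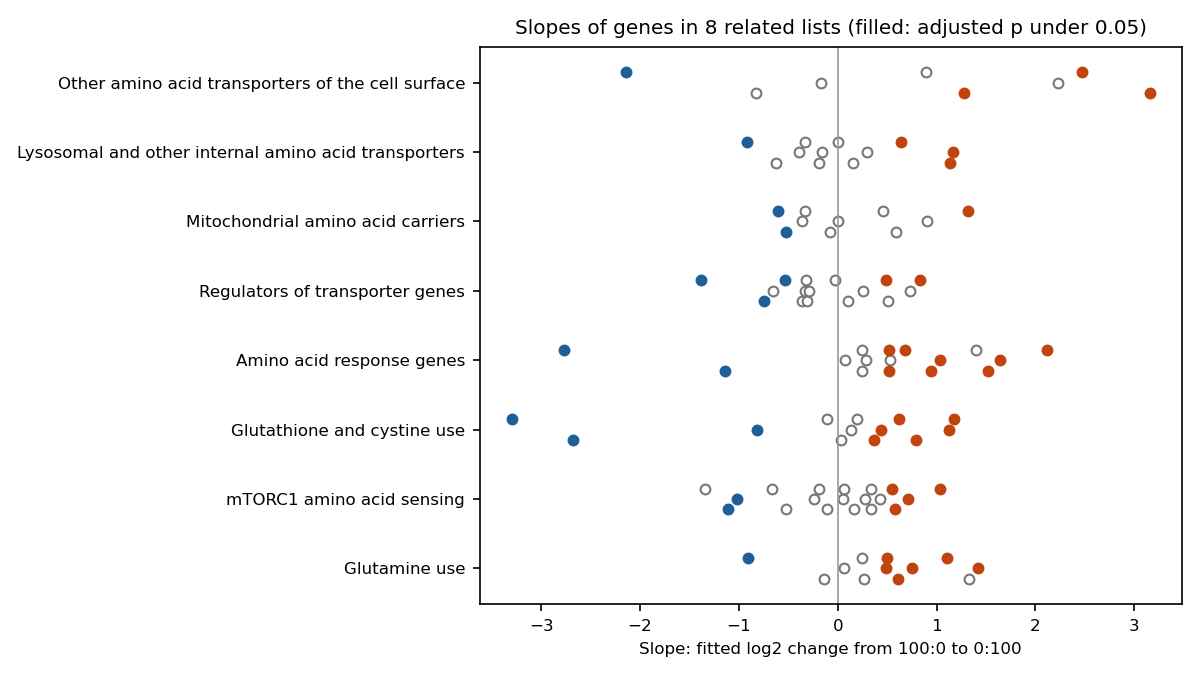
Slope of each tested gene, the fitted log2 change from 100:0 to 0:100 (x axis), in 8 lists of related genes (y axis). Filled points had an adjusted p under 0.05 (orange rising, blue falling) and open points did not; 8 amino acid response genes lie to the right as filled points and 2 to the left.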

How the data were processed

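Each library came as a table, deposited by the authors, of unscaled estimated counts of reads per transcript, of which 2 values were not whole. Per the labels' protocols, cDNA was amplified by PCR and size selected. Per the submitters' processing notes, minimap2 2.24, Salmon 1.9.0 and the GRCh38 build were used, with no role or order given. The annotation release, filters and strand setting are not given in the sources used here. Values were rounded to whole reads, and 161 identifiers listed more than once were summed. Of 227751 human transcripts 224076 matched GENCODE v44, holding 98.63% of human reads. Unmatched transcripts and sequins stayed in library totals but in no gene.

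Slopes on the HCC827 mass fraction were fitted over all genes with edgeR 4.0.16 (quasi-likelihood, in R 4.3.3), TMM scaling and Benjamini-Hochberg adjustment. Genes needed 10 reads in 2 or more libraries. Standard errors (SE) were derived from the F statistic and the slope. Since mixing is additive on the linear scale, a log2 slope understates large ratios. With 1 library per ratio, p-values measure only the scatter of libraries from the same RNA preparations (biological coefficient of variation 9.11%). DESeq2 1.42.0 and limma 3.58.1 served as alternatives, and scripts were tested on simulated data. There the slope test recovered 90 of 200 genes changed by a known fold, with 3 false calls among 13150 genes. A gene that did not pass may therefore still differ. A count of 0 does not show absence, and intervals cover counting error only. Alternatives were other scalings, filters and tests, the fraction estimated from reads, 2 against 2 libraries, leaving out each library and, added after the data were seen, removal of the length trend.

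The text names all 10 transporters, their transcripts with at least 5% of reads, and up to 4 called genes per direction and list with at least 100 reads; the 3 genes with profiles most alike to the members of highest and lowest slope were added. SLC1A1, SLC43A1, SLC7A7, NFE2L2, ASNS, GCLC, GCLM, EPCAM and the other markers were named besides. The members and lists were chosen with earlier results of these data known. A gene of glutamine use chosen by the rule is not reported here.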

Additional observations from a re-analysis of the deposited data

How the results depend on the processing

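SLC7A5, SLC3A2, SLC7A1, SLC7A11 and SLC38A2 kept their direction and passed in all 14 alternative fits, SLC7A6 in 13, SLC1A5 in 11 and SLC38A10 in 7. The 2 against 2 comparison, which used 4 libraries, called 5 transporters, 3 of them rising, 8 of their transcripts and 2291 genes in all. In it the counts of the lists, in the order of the report, were 2, 1, 1, 3, 6, 4, 1 and 3. With library totals 4 transporters fell, 10 regulators and 4 genes of glutamine use were called, and all genes split into 1813 rising and 5074 falling, against 3169 and 3006. With 10 reads required in every library 1 cell surface transporter was called. DESeq2's Wald test called 2 internal transporters, 1 mitochondrial carrier and 9 transcripts of the members. With the length trend removed, 8 regulators and 3 mTORC1 genes were called. For none of these counts was the cause tested; with 2 against 2 libraries, fewer samples entered the fit.

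With any single library left out, the calls were 6 to 8 transporters, 7 to 15 of their transcripts, 4067 to 5860 genes, 2 to 4 cell surface transporters, 1 to 3 internal ones, 1 to 3 mitochondrial carriers, 5 to 9 glutathione genes and 2 to 6 mTORC1 genes. The lowest counts of genes, transcripts, glutathione genes (5) and mTORC1 genes (2) came without 0:100, and of internal (1) and mitochondrial (1) carriers without 100:0. The cell surface list fell to 2 without 100:0 or 25:75. SLC38A1, which had no detected slope, ran from -0.09 (without 0:100) to 0.02 (without 25:75) with a library left out, was 0.01 without 100:0, and reached 0.30 with the length trend removed.

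No paired analysis was possible because each mixing ratio has 1 library. Depth limits the least read genes: SLC1A4 had 323 reads in all and SLC7A6 453.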
